A study of Arabidopsis thaliana with 57 samples.

Results

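The chloroplast genome of Arabidopsis thaliana encodes a small set of genes, and these were examined as a group in cells of the late stomatal lineage. Members were chosen by their identifier alone: every row of the count table whose identifier begins with ATCG, the prefix of the plastid chromosome, with at least 1 count. All 88 such rows qualified, of 27655 genes in the table. Induced cells came from 5 transgenic lines in the Col-0 background, each carrying the FAMA promoter driving the steroid-dependent activator GR-LhG4 and a second construct that this activator switches on. The second construct encoded Venus-tagged FAMA, SPCH, SRDX_FAMA, SRDX_SPCH or, in the control line NLS, Venus with no more than a nuclear localization signal. FAMA and SPCH (SPEECHLESS) are transcription factors of stomatal development, and SRDX is a repressor peptide fused to them. Seedlings were 10 days past germination, and all lines, the control included, received 30 µM dexamethasone (DEX) for 2, 3 or 4 h before protoplasting and sorting of about 3000 Venus-positive cells per library. The 57 libraries comprised 11 NLS, 11 FAMA, 12 SPCH, 12 SRDX_FAMA and 11 SRDX_SPCH, with 3 or 4 per line and time point. The paper proposes that the NLS sort took in more weakly fluorescent cells, so that its mixture of cells differed from those of SPCH and FAMA. For its list of targets it turned to comparisons without NLS. Contrasts against NLS below carry this limit. The FAMA promoter is active in guard mother cells, guard cells and myrosin cells. Transcripts of genes used as mesophyll markers were also counted, as described below.

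Plastid genes encode subunits of the photosystems, the cytochrome b6f complex, the ATP synthase, a NADH dehydrogenase-like complex, the large subunit of Rubisco, ribosomal proteins, RNA polymerase subunits and the protease subunit ClpP. They are transcribed by a plastid-encoded polymerase that needs nuclear-encoded sigma factors, and by nuclear-encoded phage-type polymerases, and many are copied as long transcripts covering several neighbouring genes. Plastid transcripts lack the stable poly(A) tail of nuclear mRNA. The cDNA kit used here is made to prime on poly(A) tails, so plastid genes enter such a library only in part. Priming inside A-rich stretches is possible and was not measured.

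The count table holds identifiers without gene names, and the reference annotation of the plastid chromosome uses other locus tags. A few members could be placed, through notes or near-copies of nuclear genes, and 6 of these are described by name. All other members are given by identifier. The 6 were ATCG00420 (ndhJ) and ATCG00430 (ndhK), subunits of the NADH dehydrogenase-like complex, ATCG00530 (cemA, an envelope membrane protein), ATCG00660 (rpl20) and ATCG01310 (rpl2), ribosomal proteins, and ATCG00670 (clpP, the protease subunit). On the RefSeq plastid chromosome of TAIR10.1 (154478 bp) their coordinates rise with their identifier numbers, so neighbouring numbers are read below as neighbouring genes.

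Priming inside a gene would need A-rich sequence. The 30 bases richest in A within each of these genes are shown 5′ to 3′ on the coding strand, with A in capitals. They are windows found by a search of the RefSeq sequence and not observed priming sites.
ndhJ, minus strand, chrPltd:49060-49089: AttAtcAAggAAtAgAgActttAcAAAtAA
ndhK, minus strand, chrPltd:49444-49473: tAAgAAAAtAgctAgAgAAAtctAtAAggA
cemA, plus strand, chrPltd:60888-60917: gAtAttcAAgAAAAAAgttttctAgAAAAA
rpl20, minus strand, chrPltd:68512-68541: tAtAcAAtttcgAAtgAcAtAAAAAAAtAA
clpP, minus strand, chrPltd:71486-71515: AAAAttAtgAtAAAAActctAtAAAAAAAA
rpl2, minus strand, chrPltd:84372-84401: gAAgAAgAActAgAAAAAggAAAAAAtAtA

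The clpP window held 20 A and the cemA window 16. Per kilobase of coding length, the median level over the 57 libraries was 51.7 CPM (counts relative to the library's total, normalized) for cemA and 32.1 for clpP. The clpP gene holds introns, and per kilobase of its whole 1973 bases its level was 9.62 CPM. Windows were sought over whole genes, introns included. Whether the clpP and rpl2 windows lie in coding sequence was not checked. The rpl20 gene gave 19.0 CPM per kilobase of coding length, ndhK 12.7 and ndhJ 12.03. The rpl2 window also held 20 A, and rpl2 gave 0.149. The rpl2 gene lies in the inverted repeat, the segment that the plastid chromosome carries as a pair of identical copies in opposite directions. Its copies at chrPltd:84337-85843 (minus) and chrPltd:152806-154312 (plus) were identical over 1507 bases, as their first 60 bases show, where capitals mark the start codon.
rpl2 copy on the minus strand: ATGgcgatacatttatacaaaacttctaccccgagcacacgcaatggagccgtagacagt
rpl2 copy on the plus strand: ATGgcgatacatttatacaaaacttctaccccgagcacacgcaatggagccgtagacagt
A read from a gene with an identical copy aligns equally well to both places, and a counter that keeps only reads with a single place discards it. The files do not state how such reads were treated.

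Libraries held 7296381 to 60348384 counts, with a median of 33317326. Of these, 19841 to 390284 counts per library fell on plastid genes. FAMA 3 h replicate 3 had 3535 CPM of FAMA and also 280 CPM of SPCH. The other FAMA libraries had 5.72 to 25.5 CPM of SPCH. The source of this SPCH signal was not tested, and the library was kept. The gene induced to a high level matched the label in all but 1 library. The library labelled SRDX_FAMA 4 h replicate 2 had 338 CPM of FAMA and 9466 CPM of SPCH, against its label. Its counts nearly matched those of SRDX_SPCH 2 h replicate 3, with a chi-square per gene of 1.26 over 16697 genes. The next closest of all 1596 pairs of libraries had 13.4, and counting error alone gives a value near 1. Both were kept under their labels, so 1 sample may be counted in both lines, and results were also computed without them. Without SRDX_FAMA 4 h replicate 2 the median plastid percentage of SRDX_FAMA was 0.411% in place of the 0.355% given next. Guard cell markers (KAT1, MYB60, SLAC1, GORK, GC1 and SCAP1) summed to 692 to 3049 CPM, and all 6 were above 0 in every library. Mesophyll markers (CA1, RBCS1A, CAB1, LHCB2.1, GAPA and GLDP1) summed to 1275 to 8270 CPM and were likewise above 0 in all 57 libraries. Which cells gave these transcripts was not tested. TGG1 and TGG2, used as myrosin cell markers, summed to 12943 to 84883 CPM, with medians of 37755 for TGG1 and 3336 for TGG2. The paper describes myrosin cells as a small portion of the sorted cells. These levels are therefore not read as numbers of myrosin cells, and which sorted cells gave them was not tested.

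Plastid genes took 0.183% to 0.747% of all counts, a 4.09-fold range, with a median of 0.384%. The SRDX_FAMA libraries alone covered nearly this whole range, from 0.183% to 0.747%, with a median of 0.355%. The control NLS libraries ranged from 0.242% to 0.647%, with a median of 0.388%. FAMA libraries ranged from 0.197% to 0.633% around 0.362%, SPCH libraries from 0.186% to 0.532% around 0.367%, and SRDX_SPCH libraries from 0.210% to 0.567% around 0.384%. The 5 lines overlapped throughout. Time points overlapped as well, with medians of 0.390% at 2 h, 0.390% at 3 h and 0.334% at 4 h. In libraries made from a mixed population, fewer plastid-rich cells and less plastid RNA per cell cannot be told apart.

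**Figure D1:**
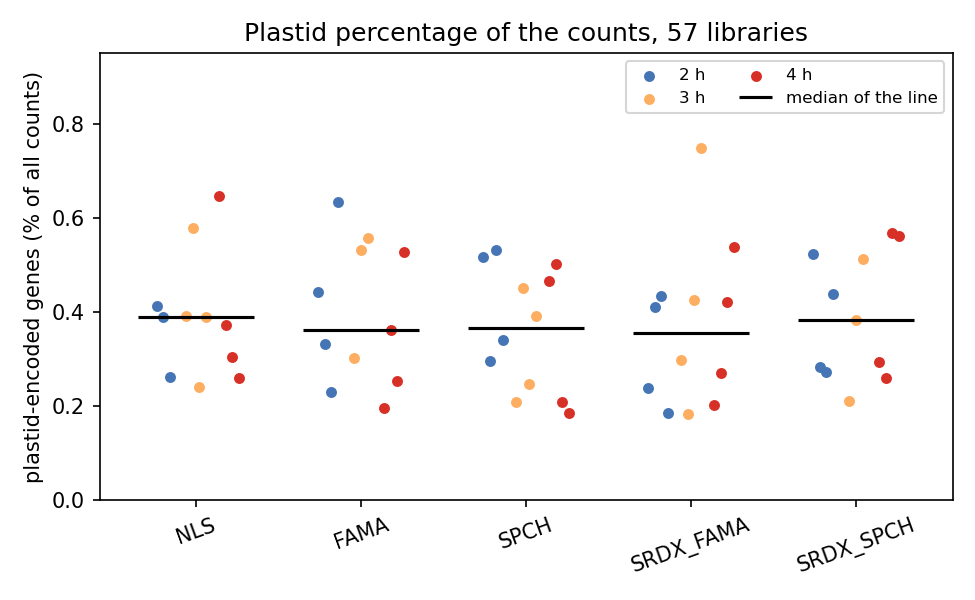
Percentage of all counts on the 88 plastid genes in each of the 57 libraries (points, coloured by hours of DEX), with the median of each line as a bar. The ranges of the 5 lines overlap, and SRDX_FAMA has the widest, 0.183% to 0.747%.

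Line means of the plastid percentage differed by less than the SD within any line. The means ran from 0.362% in SPCH (SD 0.131, n = 12) to 0.397% in FAMA (SD 0.149, n = 11), and the control had 0.386% (SD 0.128, n = 11). It did not follow depth (Pearson r = 0.06 with total counts on log scales, n = 57 libraries). The percentage on the 122 mitochondrial rows, 0.00876% to 0.0299%, moved with it across libraries (r = 0.83 and Spearman rho = 0.83, n = 57, both measured in the same libraries). Correlations with the summed markers were 0.12 for mesophyll, -0.27 for guard cells and -0.22 for TGG1 and TGG2. The letter in the library name, whose meaning the labels do not give, also went with the percentage. Its median was 0.487% in the 12 libraries with letter e, 0.424% in the 10 with letter f and 0.253% in the 9 with letter d. The part of the letter, of mitochondrial counts and of other cell types in the plastid percentage was not tested.

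Plastid counts were concentrated on few members. ATCG00350 and ATCG00340 took the most and are neighbours by number. The share of ATCG00350 was 7.91% in the lowest library, 13.6% at the median and 17.4% in the highest. The share of ATCG00340 was 5.34%, 13.9% and 17.8% in the same order. Together they averaged 26.2% of the plastid counts, the top 5 members averaged 42.0% and the top 10 averaged 55.6%. Next came ATCG00020 with a median of 6.45%, ATCG00480 with 5.05% and ATCG01050 with 4.34%. ATCG00740 (3.07%), ATCG01130 (2.91%), ATCG00680 (2.65%), ATCG00720 (2.51%) and ATCG00580 (2.14%) completed the 10. These are shares of counts, so a long gene weighs more than a short one. Lengths were used for the 6 named genes alone.

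**Figure D2:**
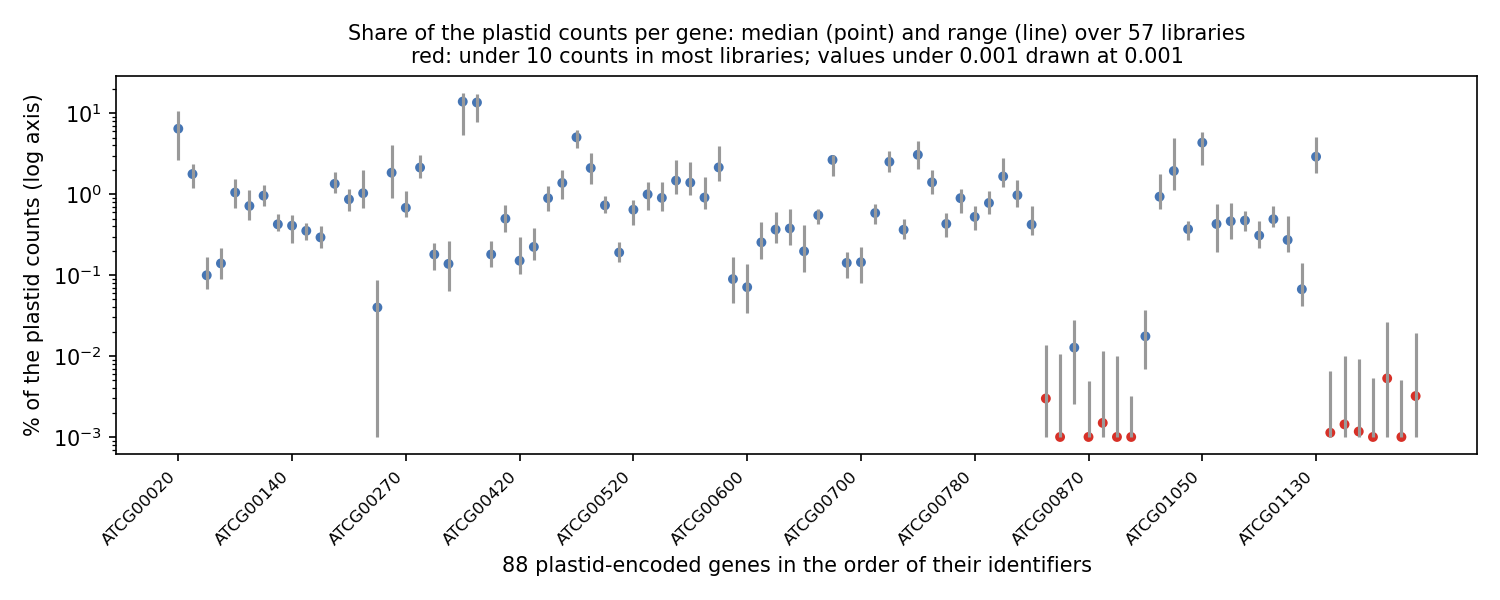
Share of the plastid counts for each of the 88 members in identifier order, as the median (point) and range (line) over 57 libraries on a log axis. ATCG00340 and ATCG00350 stand highest, and the 13 members in red sit at the bottom.

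At the other end, 13 members gave almost no counts. Their totals over all 57 libraries ran from 9 to 481 counts, and together they held 1719 counts, or 0.0231% of the plastid total. The 75 others had at least 991 counts each. These 13 lay between ATCG00830 and ATCG00905 and between ATCG01230 and ATCG01310, and the first of these stretches also holds ATCG00860, which is not among the 13 and gave 991 counts. One of them was ATCG01310 (rpl2), the single member of the 13 that could be placed, with 0 to 13 counts per library, a median of 4, and no count in 3 libraries. In the RefSeq annotation ndhB, rpl2, rpl23, rps7 and ycf2 each had an identical second copy. Whether the other 12 belong to these genes was not tested. ATCG01000 gave 1257 counts in all.

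How the members vary together was measured on the 75 with at least 10 counts in at least 29 libraries. Each was correlated over the 57 libraries with the summed level of all other members. The median r was 0.93, and 50 of the 75 exceeded 0.9. After removing the mean of each line and time point the median was 0.94. ATCG00680 followed the sum most closely (r = 0.98), ahead of ATCG00130 (r = 0.97) and ATCG00440 (r = 0.97). Most plastid genes rose and fell as a block from library to library.

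The rate at which members followed the block differed. The slope of a member's log2 level on the log2 level of the others had a median close to 1, with 21 members under 0.7 and 14 over 1.3. ATCG01060 had the steepest slope, 1.75, and its normalized level spanned 4.44 to 40.8 CPM. ATCG00020, the third member by share, had the shallowest, 0.26. Its level was 96.2 CPM in the lowest library, 217 at the median and 411 in the highest, with r = 0.29 to the other members. The SD that counting alone gives its log2 share was 0.018, against an observed SD of 0.60. For ATCG00860 (r = 0.36) and ATCG01000 (r = 0.42), which follow from the bottom, the counting SDs were 0.43 and 0.35 against observed SDs of 0.61 and 0.54. Over all 75 members the observed SD was 4.40 times the counting SD at the median.

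**Figure D3:**
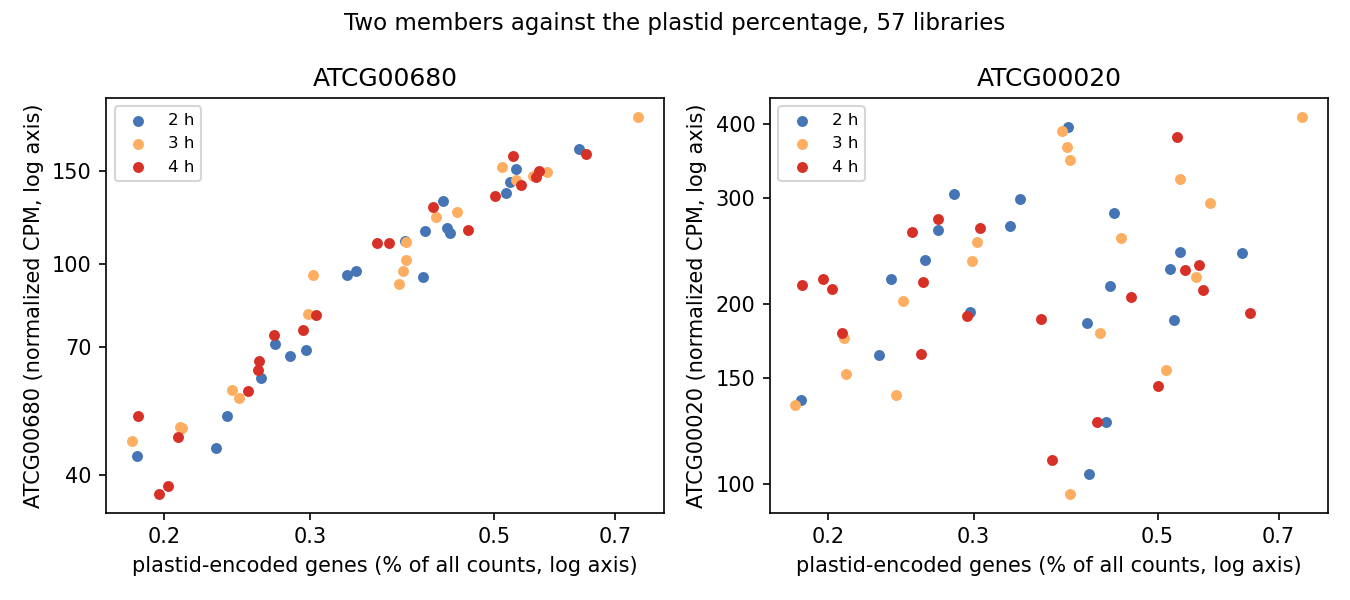
Normalized CPM of ATCG00680 (left) and ATCG00020 (right) against the plastid percentage of the counts in 57 libraries, both axes logarithmic, coloured by hours of DEX. ATCG00680 rises in step with the percentage (r = 0.98 with the other members). ATCG00020 spans 96.2 to 411 CPM over the libraries and follows the other members weakly (r = 0.29).

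The mixture of plastid transcripts shifted with the amount. When each member was expressed as a share of the plastid counts, 47.7% of the variance over the libraries lay on the first principal component. It ran against the plastid percentage (r = -0.88, n = 57, both from the same counts) and was unrelated to depth (r = -0.08). ATCG00020, ATCG00860, ATCG01020 and ATCG01010 had the highest loadings, being larger shares where plastid counts were few. For ATCG00860, with 991 counts in all, the 2 counts added before taking shares also raise its share most in such libraries. ATCG01060, ATCG00630, ATCG00590 and ATCG00660 (rpl20) had the lowest.

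Neighbours by number shared these shifts. Shares of the plastid counts, as deviations from the mean of each line and time point, correlated with a median r of 0.55 in the 74 pairs of consecutive members. The median was 0.26 for 73 pairs of members 2 places apart, 0.10 at 3 places and 0.01 over the 2080 pairs more than 10 places apart. Among the 20 closest pairs of all 2775, 9 were consecutive and 13 were at most 2 places apart. ATCG00550, ATCG00560, ATCG00570 and ATCG00580 formed one such set, with r = 0.96 for ATCG00560 and ATCG00570. The set ATCG01050, ATCG01060 and ATCG01070 had r of 0.93 to 0.95. ATCG00520 and cemA (ATCG00530) had r = 0.92, as had ATCG00340 and ATCG00350. Some close pairs were far apart by number, such as ATCG00020 and ATCG00280 (r = 0.94). Since shares sum to 100%, a rise of one member lowers others, and these correlations are a description without a test.

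**Figure D4:**
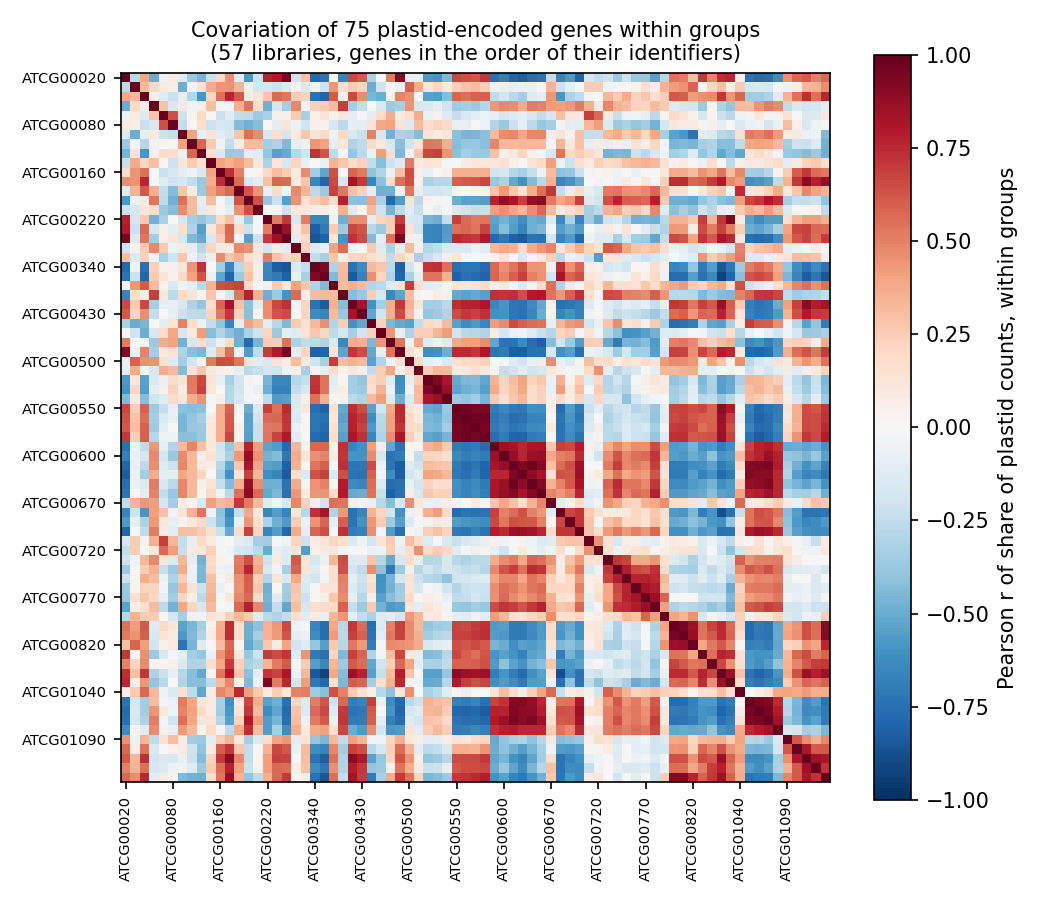
Pearson r over 57 libraries between the shares of plastid counts of 75 members, as deviations from the mean of each line and time point, with members in identifier order. Red squares along the diagonal are sets of neighbouring identifiers, where consecutive members have a median r of 0.55.

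Whether any member differed between lines or time points was first tested against the whole library, with edgeR's quasi-likelihood test on 24295 genes, of which 76 were members. The test for any difference between the 5 lines gave 1 of 76 members at an adjusted p under 0.05, where 27.5% of all genes passed. That member was ATCG01130 (adjusted p = 0.0116). Its normalized level was 61.7 CPM in the lowest library and 168 in the highest. Its log2 difference from NLS was -0.14 ± 0.10 (SE) in FAMA, -0.18 ± 0.10 in SPCH, 0.08 ± 0.10 in SRDX_FAMA and 0.20 ± 0.10 in SRDX_SPCH, none of which passed on its own. The share of ATCG01130 in the plastid counts was 2.14%, 2.97% and 4.42% (lowest, median, highest) in NLS and 1.82%, 2.30% and 3.97% in FAMA. It was 1.87%, 2.46% and 3.91% in SPCH, 2.42%, 3.40% and 5.04% in SRDX_FAMA and 2.64%, 3.34% and 4.80% in SRDX_SPCH. The lines overlapped, with the lower medians in FAMA and SPCH.

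Single contrasts against the whole library called no member in edgeR or in DESeq2's Wald test. For FAMA against NLS, 0 of 76 passed where 8.1% of all genes did, and 1 member had an unadjusted p under 0.05. For SPCH against NLS the count was 0 where 8.3% of genes passed, for SRDX_FAMA 0 where 4.72% passed, and for SRDX_SPCH 0 where 3.32% passed, each with 0 members under an unadjusted 0.05. SPCH against FAMA gave 0 where 1.28% passed, again with 0 under the unadjusted threshold. These contrasts could not show small differences, since the median half-width of a member's 95% interval was 0.45 to 0.46 on the log2 scale. The members' median log2 difference from NLS was 0.14 in FAMA, 0.02 in SPCH, -0.02 in SRDX_FAMA and 0.08 in SRDX_SPCH, beside 0.04, 0.02, -0.01 and -0.01 over all genes.

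No time effect was detected on this scale. The test for any difference between 2, 3 and 4 h called 0 members (2.58% of all genes), with 1 under an unadjusted 0.05. The line by time interaction called 0 (0.00395% of genes), with 0 under the unadjusted threshold. Within FAMA, 4 h against 2 h called 0 of 76 members (0% of genes) and 0 were under the unadjusted threshold. Within SPCH it called 0 of 75 (0% of genes), with 2 under it. The median half-width of the 95% interval within a line was 0.71 in both.

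The second set of tests scaled each member to the summed plastid counts of its library, which takes out the overall plastid share for a member that follows the sum with a slope of 1. For members with other slopes a part of it remains. The median half-width of the intervals against NLS fell to 0.22. Here 7 of 76 members differed between lines, where 27.6% of all genes passed, and 14 members had an unadjusted p under 0.05. The members' share was below that of the genes at large. In this fit the 7 lay in the stretch of 9 consecutive identifiers ATCG00740 to ATCG00820. Both ends of the stretch are called members, so these calls marked it off, and its sum below is no separate test. Of the 67 members outside it, the nearest were ATCG00040 (adjusted p = 0.0537 in edgeR), clpP (0.0538) and ATCG01130 (0.0544). ATCG00780, inside it, was further from passing (0.0733). Members outside the stretch did pass in other fits: 4 of 12 called with the library letter as a block, 7 of 13 with the plastid share as a covariate, 3 of 10 with at least 10 counts in every library, and 2 of 11 without SRDX_FAMA 4 h replicate 4. The 7 were ATCG00790 (adjusted p = 8.6e-05), ATCG00760 (0.00437), ATCG00800 (0.0095), ATCG00770 (0.0175), ATCG00810 (0.0177), ATCG00740 (0.0359) and ATCG00820 (0.0435).

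ATCG00790 took 0.638%, 0.839% and 0.964% of the plastid counts (lowest, median, highest) in NLS. It took 0.571%, 0.682% and 0.860% in FAMA and 0.629%, 0.716% and 0.837% in SPCH. In SRDX_FAMA it took 0.694%, 0.829% and 1.01%, and in SRDX_SPCH 0.765%, 0.882% and 1.10%. FAMA and SPCH had the lower medians, and every line overlapped every other. Marker genes also differed in level between these lines. TGG1 and TGG2 summed to 45821 to 84883 CPM in SPCH and 22285 to 43969 in NLS, without overlap, and to 26218 to 68135 in FAMA. The epidermis markers ATML1 and PDF1, above 0 in all libraries, summed to 133 to 294 CPM in NLS, 67.3 to 205 in FAMA and 60.7 to 147 in SPCH. The paper lists PDF1 among its putative targets of SPCH and FAMA, so this sum need not follow cell types alone. Guard cell markers had medians of 1394 CPM in NLS, 1818 in FAMA and 2087 in SPCH. SCAP1, one of them, is described in the paper as a downstream target of FAMA, so this sum has the same limit. The part of these marker differences in the line differences of plastid members was not tested. ATCG00800 showed the same order of medians for these lines against NLS, with 1.85% in NLS, 1.35% in FAMA, 1.52% in SPCH, 1.78% in SRDX_FAMA and 1.94% in SRDX_SPCH.

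The 9 members of the stretch summed to a median of 10.7% of the plastid counts in NLS, 9.72% in FAMA, 9.47% in SPCH, 11.3% in SRDX_FAMA and 10.5% in SRDX_SPCH. Ranges were 8.76% to 12.3% in NLS, 8.40% to 10.7% in FAMA and 8.50% to 10.6% in SPCH. Ranges were 8.73% to 12.9% in SRDX_FAMA and 9.49% to 12.01% in SRDX_SPCH. The stretch was not uniform. Shares of ATCG00740 to ATCG00780 correlated within lines and time points at r = 0.64 to 0.86, and those of ATCG00800 to ATCG00820 at r = 0.85 to 0.95. Between these blocks r was -0.33 to 0.00. In SRDX_FAMA against NLS the first block carried the higher values, with 0.20 ± 0.08 (log2 difference ± SE) for ATCG00740 against 0.07 ± 0.11 for ATCG00800. In FAMA against NLS the values were 0.02 ± 0.09 and -0.29 ± 0.11. None of these 4 values passed adjustment.

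**Figure D5:**
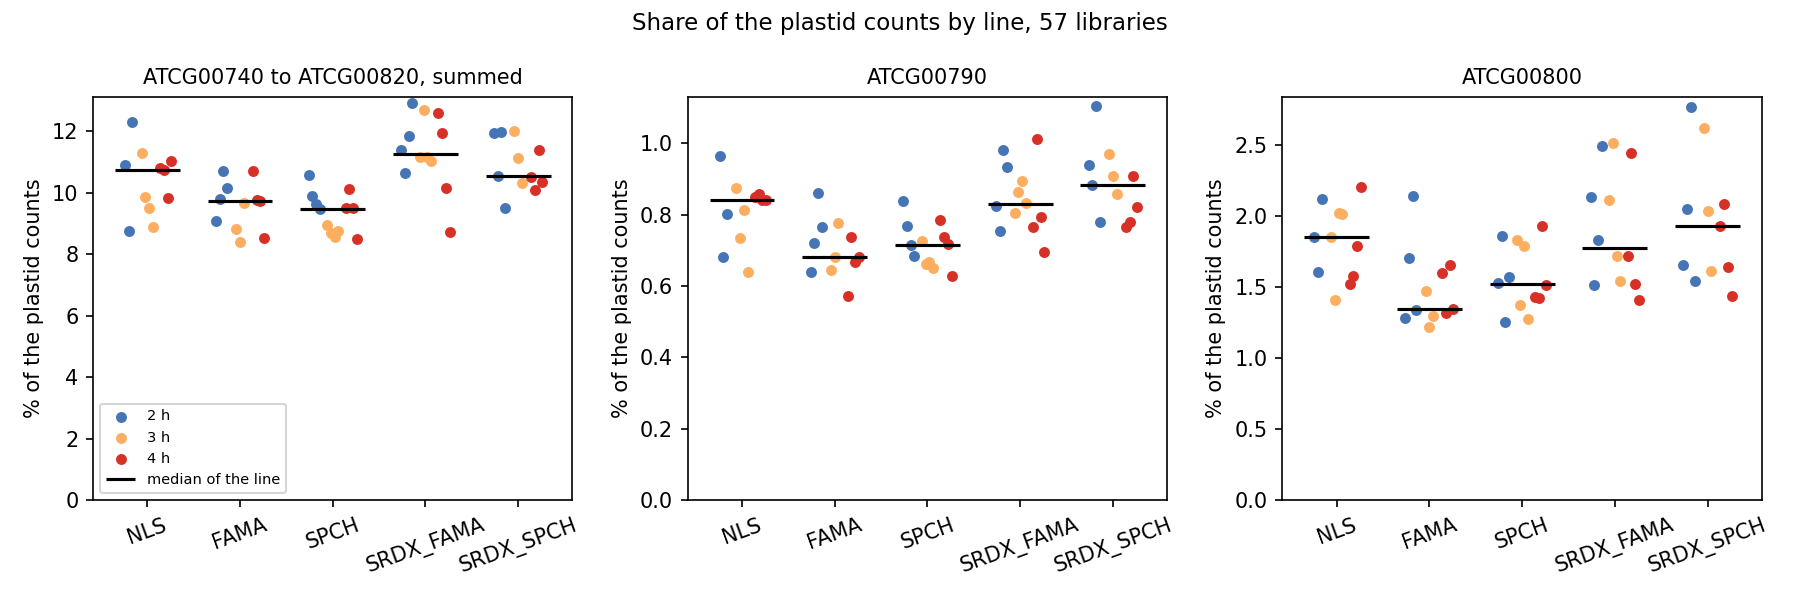
Share of the plastid counts in 57 libraries by line for the 9 members ATCG00740 to ATCG00820 summed (left), ATCG00790 (middle) and ATCG00800 (right), coloured by hours of DEX, with line medians as bars. FAMA and SPCH have the lower medians (9.72% and 9.47% for the sum against 10.7% in NLS), and all lines overlap. The 9 members were marked off by calls in the test between lines.

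These calls depended on what stood for the plastid total. ATCG00340 and ATCG00350 make up much of the sum, and their joint share was 29.6% at the median in NLS, 29.8% in FAMA, 27.4% in SPCH, 25.7% in SRDX_FAMA and 25.6% in SRDX_SPCH. With the median ratio over all members in place of the sum, 6 members were called. Of these, 3 were in the stretch (ATCG00760, ATCG00790 and ATCG00800) and the other 3 were ATCG00120, ATCG00130 and ATCG00330. Without the library labelled SRDX_FAMA 4 h replicate 2, 7 members were called, 6 of them from the stretch. Without both matching libraries 6 were called, all in the stretch, and ATCG00820 was not (adjusted p = 0.0795 in edgeR).

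Single contrasts within the plastid counts called 1 member. ATCG00790 was lower in FAMA than in NLS by a log2 difference of -0.21 ± 0.07 (SE, 95% interval -0.34 to -0.07, adjusted p = 0.0394 in edgeR), where 8.11% of all genes passed. DESeq2 also called 1 member. Leaving out any 1 of 13 libraries ended the edgeR call, with log2 differences of -0.24 to -0.18 over all omissions. These were FAMA 2 h replicate 1, 3 h replicates 1 and 2, 4 h replicates 1 and 3 and the FAMA 4 h library without a number, and NLS 2 h replicate 1, 3 h replicates 1 and 3 and 4 h replicates 1 to 4. The call also ended in a fit of FAMA and NLS alone (adjusted p = 0.105 in edgeR). ATCG00790 differed by -0.18 ± 0.07 in SPCH against NLS (adjusted p = 0.0686, edgeR), by 0.06 ± 0.07 in SRDX_FAMA and by 0.12 ± 0.07 in SRDX_SPCH, all against the same NLS libraries. In SPCH against NLS 0 members passed in edgeR (8.3% of genes) and 1 in DESeq2, with 5 under an unadjusted 0.05. In SRDX_FAMA against NLS 0 passed (4.72% of genes) with 2 under it, and in SRDX_SPCH against NLS 0 passed (3.31% of genes) with 3 under it, with 0 in DESeq2 for both. SPCH against FAMA called 0 (1.28% of genes) with 2 under the unadjusted threshold and 0 in DESeq2.

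Within the plastid counts no change with time was detected for any member. The test over 3 time points called 0 (2.62% of genes), with 5 members under an unadjusted 0.05, and the line by time test called 0 (0.00395% of genes), with 1 under it. In FAMA, 4 h against 2 h called 0 (0% of genes) with 6 under the unadjusted threshold, and in SPCH 0 (0% of genes) with 5, and DESeq2 called 0 in each. ATCG00470 had the smallest adjusted p for time, 0.22. The median half-width of a 95% interval was 0.41 in FAMA and 0.38 in SPCH.

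Some nuclear genes that serve plastid transcription and RNA stability differed from the control. Of 32 such genes, all tested against the whole library, 9 differed between lines, a share near the 27.5% of all genes, and 3 differed with time (2.58% of all genes). In FAMA against NLS 3 rose and 4 fell (8.1% of all genes passed), in SPCH 3 rose (8.3%), in SRDX_FAMA 1 passed (4.72%) and in SRDX_SPCH 0 passed (3.32%). Both phage-type RNA polymerases rose in FAMA and in SPCH. RPOTp, the plastid enzyme, had 17.9, 22.5 and 28.3 CPM (lowest, median, highest) in NLS. It had 18.7, 30.5 and 33.8 in FAMA and 21.4, 31.5 and 44.6 in SPCH. Its log2 difference was 0.34 ± 0.09 (SE, adjusted p = 0.0109) in FAMA and 0.50 ± 0.09 (adjusted p = 6.8e-05) in SPCH, both from edgeR. RPOTmp, found in both organelles, rose by 0.40 ± 0.11 (adjusted p = 0.0168) and 0.42 ± 0.11 (adjusted p = 0.00985), and its difference in SRDX_FAMA was -0.38 ± 0.11 (adjusted p = 0.0317). Without SRDX_FAMA 4 h replicate 2 the RPOTmp value was -0.34 ± 0.11 and did not pass (adjusted p = 0.0567, edgeR). SIG5, a sigma factor for the plastid-encoded polymerase, rose by 0.59 ± 0.16 (adjusted p = 0.0150) in FAMA and 0.60 ± 0.16 (adjusted p = 0.0115) in SPCH, and the 5 other sigma factors did not pass in either. Among 12 proteins bound to the plastid-encoded polymerase, PAP1 fell by 0.44 (SE 0.10) in FAMA. PAP8 had -0.30 ± 0.10 (adjusted p = 0.0499, and 0.05 without SRDX_FAMA 4 h replicate 2, where it no longer passed), and none passed in SPCH. Of 10 RNA decay and stability genes, PNP, a ribonuclease, and MRL1, which stabilizes the rbcL transcript, fell in FAMA by 0.38 (SE 0.11) and 0.31 (SE 0.10). GLK1 and GLK2, nuclear activators of photosynthesis genes, passed in no contrast. Both contrasts share the NLS libraries, whose mixture of cells the paper proposes was skewed. The differences between lines given above for TGG1 and TGG2, epidermis markers and guard cell markers accompany these contrasts. In SRDX_FAMA, TGG1 and TGG2 had a summed median of 20248 CPM and guard cell markers 1088, both the lowest of the lines. Their part in these nuclear genes was not tested.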

How the data were processed

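Libraries were made with the SMART-Seq v4 kit and sequenced as 50-base single reads. The authors aligned the reads with STAR to TAIR10 and counted them per gene with HTSeq, and the deposited table holds raw counts. Counting settings, including the treatment of reads with several places, are not given in the sources used here. All 57 columns were used. One column could be tied to the FAMA 4 h group but not to a replicate number. Replicates are called biological, with no account of separate cultures, so p-values measure the spread between these libraries. The members and gene lists were chosen with earlier results of these data known. Functional classes of plastid genes could not be applied, since identifiers could not be paired with names. Results of 1 member that could be named are not reported here.

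Tests used edgeR 4.0.16 on all genes (filterByExpr with a minimum count of 10, TMM, line and time as additive factors, glmQLFTest, Benjamini-Hochberg over all genes tested, threshold 0.05). Of 88 members, 76 passed the filter. The second scaling replaced the members' offset by the log of their summed counts. DESeq2 1.42.0, other filters, offsets and blocks, and each library left out were alternatives. Fits without a pair of libraries of different lines with nearly matching counts were added after seeing the data. The fits were tested on simulated data in which all members followed a common plastid factor in each library. Members with unequal slopes were not simulated, so the test does not cover them. Normalized CPM used TMM library sizes, and covariation used log2 CPM with 2 counts added. Named were the 10 members with the highest share, up to 5 called members in each direction of a comparison with all 7 called between lines given, the 3 highest and 3 lowest in correlation, and members with nearly no counts. The other members named, in the sets of neighbours, in the component and under other offsets, were chosen after their values were seen. Sequences came from RefSeq TAIR10.1.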

Additional observations from a re-analysis of the deposited data

Results flagged for a closer look

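Among 48 sets of 4 libraries (4 measures in 12 groups of 1 line and time point), 1 library stood apart from the others of its group. In SRDX_FAMA 3 h replicate 2 the members ATCG00740 to ATCG00820 took 12.7% of the plastid counts, against 11.03% to 11.2% in the other libraries of that group. Chance marks about 5% of groups by this measure.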

How the results depend on the processing

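The letter of the library name as a block gave 2 members between lines against the whole library and 1 in FAMA against NLS. Within the plastid counts it gave 12 between lines, 3 in FAMA and 3 in SPCH against NLS. Without a filter, 2 members differed between lines against the whole library. Within the plastid counts, the plastid share as a covariate gave 13 between lines, 3 in FAMA and 1 in SRDX_FAMA against NLS. FAMA against NLS gave 0 with the median-of-ratios offset and 0 with a fit of both lines alone. SPCH against NLS gave 1 with at least 10 counts in every library and 1 with DESeq2. The cause was not tested. With 1 library left out, the count between lines within the plastid counts was 5 to 11 (11 without SRDX_FAMA 4 h replicate 4), for FAMA against NLS 0 to 2 (2 without FAMA 2 h replicate 3) and for SPCH against NLS 0 to 2 (2 without SPCH 2 h replicate 2, 1 without NLS 2 h replicate 2, NLS 3 h replicate 4 or SPCH 2 h replicate 1). ATCG01130 kept its call in all 57 such fits (adjusted p 0.004 to 0.0264), as did ATCG00790 between lines, while ATCG00740 lost it in 11 (adjusted p 0.0158 to 0.106 over all) and ATCG00820 in 28 (0.00453 to 0.0693). Without both libraries whose counts nearly match, an alternative chosen after seeing the data, no count moved by over 1.5 times. No result reversed.

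Replicate numbers did not pair the libraries: of 41 same-numbered pairs with NLS, 13 had r over 0.1, and 7 of 45 libraries correlated best with their own number. The replicate block left 6 members called between lines within the plastid counts, all among the 7, and changed no other count. The median plastid percentage moved to between 0.379% and 0.386% with a library left out, and the median r of the members was 0.92 without the 2 libraries richest in plastid counts. Depth limits members with few counts: the 13 lowest allowed no comparison beyond the 1 that passed the filter.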
